A study of Mus musculus with 2 samples.

Results

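Tia1 crosslinks were examined on the genes of the proteasome, taken as all protein-coding genes of the GENCODE mouse annotation (GRCm38) whose symbol starts with Psma, Psmb, Psmc, Psmd, Psme or Psmg. The rule uses names only and no measured value. It selected 49 of 21938 protein-coding genes, all 49 with an annotated 3′UTR, as had 21671 genes in all. They fall into 15 genes of the core particle, 22 regulatory genes, 4 immunoproteasome genes and 7 assembly chaperones. The remaining gene, Psmc3ip, shares the letters of the name but encodes a cofactor of meiotic recombination and no proteasome subunit.

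The proteasome is the protease of the cytosol and the nucleus that degrades proteins tagged with ubiquitin. Its barrel-shaped core is built of alpha and beta rings, and some of the beta subunits carry the active sites. A regulatory particle on the end of the barrel binds ubiquitin chains, removes them and unfolds the substrate with a ring of ATPases, while alternative activators such as the PA28 family open the barrel without ATPases. In lymphocytes exposed to interferon or other immune stimuli, inducible catalytic subunits replace their constitutive counterparts in new particles, and the peptides cut by this immunoproteasome feed MHC class I presentation.

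Crosslinks were mapped by iCLIP, in which UV light joins protein to RNA, the complex is immunoprecipitated, and the end of each cDNA marks the crosslinked nucleotide. The material was cytoplasm of splenic B cells from C57BL/6 mice, 8 to 12 weeks old according to the methods, after activation with lipopolysaccharide (LPS, 10 µg/ml) for 48 h, and both samples, replicates 1 and 2, belong to this 1 group. The number of mice behind each library is not stated in the methods or labels. Titles name Tia1, an RNA-binding protein of stress granules known to bind U-rich RNA, whereas the antibody field names its relative Tial1 and the methods name an antibody specific for Tia1, a difference that was not settled here.

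The library of replicate 1 had 639108 unique cDNAs on 342732 low-FDR sites, and that of replicate 2 had 165081 on 93512. A low-FDR site is a nucleotide whose crosslinks passed the false discovery rate of 0.05 set by the authors. With 1 group of 2 samples and no untreated or isotype library analysed here, no test between groups could be made. Each value is therefore given per replicate beside the same value over all genes. Of the markers checked, 5 of 6 B cell genes had a 3′UTR site in both replicates (2524 and 553 cDNAs summed), against 0 of 4 T cell genes (4 and 0 cDNAs, with Cd3g, Cd4 and Cd8a at 0). Of the myeloid genes 2 of 3 had one (29 and 6 cDNAs, with Csf1r at 0), and of the erythroid genes 1 of 2 (25 and 3 cDNAs, with Hba-a1 at 0). The part of such cells in the results below was not tested.

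The sequences under the highest 3′UTR site are shown for the 10 proteasome genes with the most 3′UTR cDNAs, and for Psmb8, the other immunoproteasome gene with sites in both replicates, because they show what RNA was crosslinked in these transcripts. Each run is 29 nt of the transcribed strand, 5′ to 3′, read from GRCm38 and centred on the site with the most pooled cDNAs, and every window lies in a 3′UTR. Capitals mark nucleotides that are themselves low-FDR sites in the pooled list.
Psmb2 (chr4:126709632-126709660, plus strand): CUCAUUUUUUUUUUUUCUACUCUUUUGAc
Psme3 (chr11:101322095-101322123, plus strand): caGcCUgUcCUaAUUUCUggAgaaCucca
Psmb3 (chr11:97713465-97713493, plus strand): UUUUGUUUUUCUUUUUAAUaaaauugccu
Psmd11 (chr11:80471951-80471979, plus strand): aaaaaggcuuAcacUaCcuaaagcugugc
Psma1 (chr7:114264693-114264721, minus strand): UaUacAuaaUcAuUUUCUaGgaaGuauag
Psmd14 (chr2:61800212-61800240, plus strand): CacucgcuUcugUUUAUUUUGuccgGGuU
Psmb9 (chr17:34182057-34182085, minus strand): ugccCUUCCaUUCUUUUguaaaaAUaaac
Psmd8 (chr7:29174314-29174342, minus strand): cagggacuaGAUUUUUUUUCCccAGugaa
Psma5 (chr3:108279870-108279898, plus strand): uuauUUccagcuCUUauGUcauGgAaaau
Psmd12 (chr11:107497804-107497832, plus strand): auguUGUUUuUUUCUUaCUCucgaccUUU
Psmb8 (chr17:34201321-34201349, plus strand): gaccugggacuacUUCaguCuUaggaaaa

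The 11 windows were not alike. The Psmb2 window held 19 U and had a site at 28 of its 29 nucleotides, and the Psmb3 window held 18 U. A run of UUUUU occurred in 4 windows, those of Psmb2, Psmb3, Psmd12 and Psmd8. The windows of Psmb8, Psme3 and Psmd11 had the fewest U, 7, 8 and 6 of 29 nt. The site at the centre was called in both replicates in 9 of the 11 genes, the exceptions being Psmd11 and Psmb8. In Psma5 and Psmd11 a second site had the same pooled count, and the one with the lower genome coordinate is shown.

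Tia1 crosslinks were found in the 3′UTR of most proteasome genes, a larger share than over all genes. A 3′UTR site in both replicates, the definition of a bound gene used here after the study's methods, was found for 26 of the 49 genes (53.1%), against a background of 21.3% of the 21671 genes with a 3′UTR. Transcript abundance was not measured in these 2 libraries, so that more transcripts and more binding per transcript cannot be told apart. Among genes with a pooled site in any exon, whose transcripts were thus recovered at least once, 72.2% of the 36 such proteasome genes were bound, against 59.8% of 7717 genes. A stricter limit of 10 or more cDNAs per replicate was met by 17 proteasome genes (34.7%), against 11.5% of all genes.

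The 3′UTRs of the 49 genes together held 2117 cDNAs in replicate 1 and 720 in replicate 2. Scaled to 100000 low-FDR cDNAs of the replicate, these were 331 and 436, or 384 ± 74.2 (SD, n = 2). The genes are 0.226% of those with a 3′UTR and held 0.425% of all 3′UTR cDNAs in replicate 1 and 0.544% in replicate 2. Most of the signal came from few genes. Psmb2 and Psme3 alone held 39.3% of the proteasome cDNAs in replicate 1 and 36.7% in replicate 2. The 10 highest genes held 75.5% and 77.6%. The median bound proteasome gene had 64 cDNAs summed over the replicates, and the median of all bound genes was 55.

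**Figure D1:**
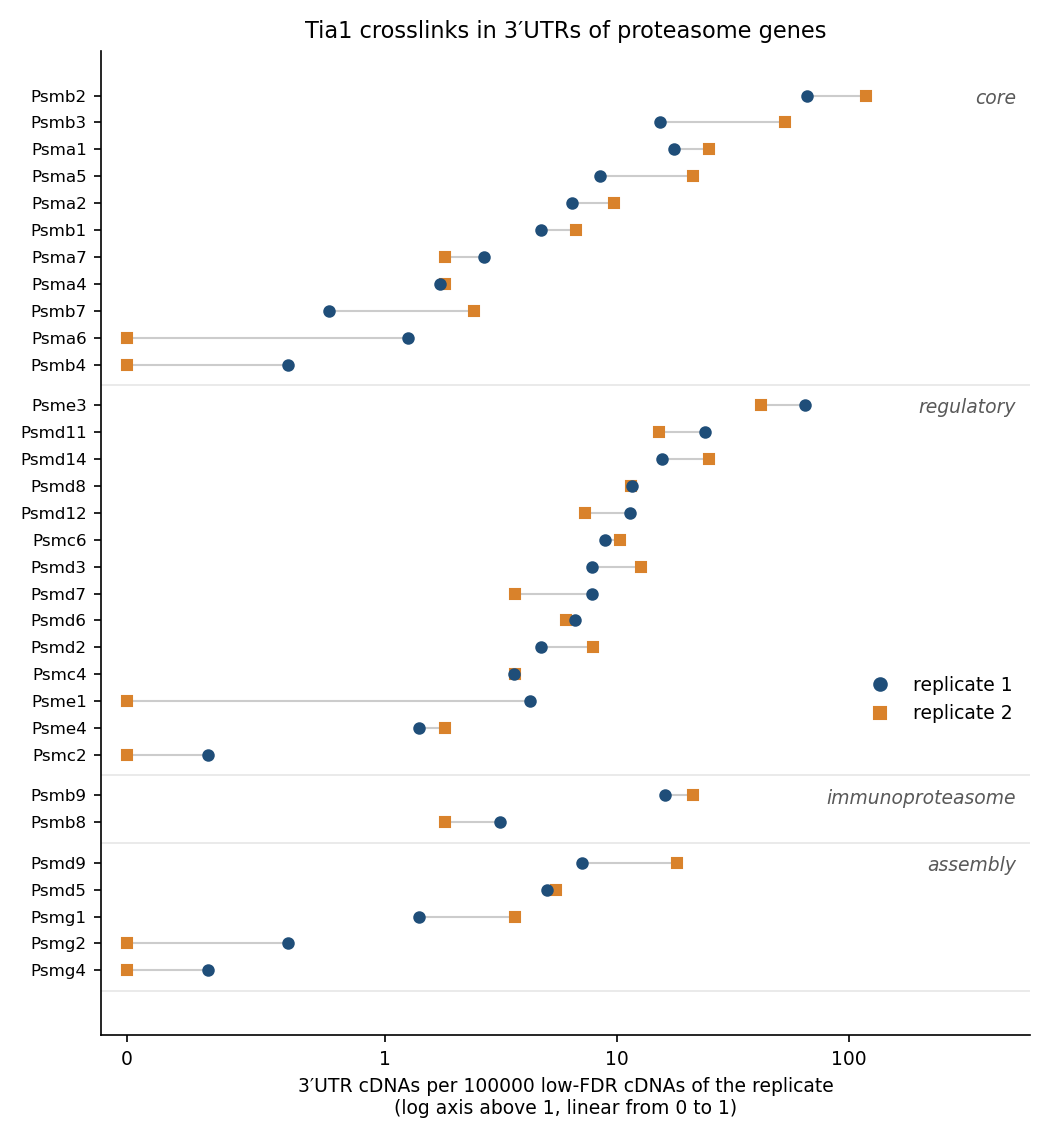
3′UTR cDNAs per 100000 low-FDR cDNAs of the replicate (x axis, logarithmic above 1 and linear below) for the 32 proteasome genes with a 3′UTR site, grouped by class; circles are replicate 1 and squares replicate 2. Psmb2 and Psme3 lie farthest to the right in replicate 1, at 65.7 and 64.5, and 6 genes have a site in replicate 1 only.

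In the core particle 9 of 15 genes were bound. Psmb2, a beta ring subunit without an active site, was the highest of all 49 genes with 420 cDNAs in replicate 1 and 195 in replicate 2. Psmb3, likewise a beta subunit that is not catalytic, had 98 and 87. Summed over the replicates, these 2 genes had more cDNAs than all other core genes together. Of the alpha ring, whose subunits form the gate of the barrel, Psma1 had 112 and 41 cDNAs and Psma5 had 54 and 35. The other bound core genes, Psma2, Psma4, Psma7, Psmb1 and Psmb7, summed to between 9 and 57 cDNAs. Psma6 and Psmb4 had 3′UTR sites in replicate 1 only (8 and 4 cDNAs), Psma3 had exon sites outside the 3′UTR only, and no low-FDR site was found for the testis-specific alpha subunit Psma8 or for the catalytic subunits Psmb5 and Psmb6. The median core gene had 14 cDNAs summed, with a range of 0 to 615.

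In the regulatory class 12 of 22 genes were bound, and their levels were spread from 0 to 481 cDNAs with a median of 28. Psme3, the PA28 gamma activator of the nucleus, had 412 cDNAs in replicate 1 and 69 in replicate 2, the highest count of the class in each replicate, where the class summed to 1102 and 242 cDNAs. Its relatives of the PA28 family were not bound by the same definition, as Psme1 had 27 and 0 cDNAs, Psme2 had none and Psme2b had pooled sites in the coding sequence only. Psme2 and Psme2b are close paralogues, and whether a read that matched both was kept is not stated in the methods or labels. The last activator, Psme4 (PA200), had 9 and 3 cDNAs.

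The bound regulatory genes were mostly those of the lid and scaffold, the non-ATPase part of the 19S particle, of which 8 of 11 were bound (572 and 147 cDNAs). Psmd11 had 153 and 25 cDNAs and Psmd12 had 73 and 12, both encoding structural subunits of the lid. Psmd14, the deubiquitinase of the lid, had 100 and 41, and Psmd8 had 74 and 19. The ubiquitin receptor Psmd4 had no low-FDR site, and Psmd1 and Psmd13 had none in the 3′UTR. Of the 6 ATPases of the base only Psmc6 (57 and 17 cDNAs) and Psmc4 (23 and 6) were bound. Psmc2 had 2 cDNAs in replicate 1 and 0 in replicate 2, and Psmc1, Psmc3 and Psmc5 had no site in any feature. These sets hold few genes, and no difference between ATPases and other subunits was tested.

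Within the immunoproteasome the inducible catalytic subunits differed from each other. Psmb9 (LMP2, beta1i) had 103 cDNAs in replicate 1 and 35 in replicate 2, or 18.7 ± 3.60 per 100000 (SD, n = 2). Psmb8 (LMP7, beta5i) had 20 and 3, or 2.47 ± 0.928, below Psmb9 in each replicate. Psmb10 (MECL-1, beta2i) and the thymus-specific Psmb11 had no low-FDR site. Set beside the constitutive subunit that each replaces, Psmb9 had cDNAs where Psmb6 had 0 in both replicates, Psmb8 had cDNAs where Psmb5 had 0, and Psmb10 had 0 where Psmb7 had 5 and 4. The inducible partner was therefore the higher of the pair at the beta1 and beta5 positions and the lower at beta2, where the counts were few. In each pair the gene with more cDNAs also had the longer 3′UTR by its longest annotated form. These were 301 nt for Psmb9 against 73 nt for Psmb6, and 191 nt for Psmb8 against 76 nt for Psmb5. Psmb7 had 144 nt against 58 nt for Psmb10. The part of 3′UTR length in this order was not tested. A gene with no low-FDR site may still have crosslinks below the threshold of the authors, which were not placed on the GRCm38 annotation here.

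Of the 7 assembly chaperones 3 were bound. Psmd9 had 45 cDNAs in replicate 1 and 30 in replicate 2, and Psmd5 had 32 and 9, both chaperones of the 19S base, whereas Psmd10, another one, had none. Of the chaperones that assemble the alpha ring, Psmg1 had 9 and 6 cDNAs, Psmg2 had 4 and 0, Psmg4 had 2 and 0, and Psmg3 had none. The median of the class was 4 cDNAs summed, against 11.5 in the immunoproteasome, 14 in the core and 28 in the regulatory class. Per 100000 low-FDR cDNAs the medians were 0.313 ± 0.443 for assembly genes, 1.24 ± 0.464 for immunoproteasome genes, 1.77 ± 0.0680 for core genes and 3.32 ± 0.838 for regulatory genes (SD, n = 2). The ranges of the classes overlapped, since every class held genes with 0 cDNAs. The immunoproteasome median lay between Psmb8, at 23 cDNAs summed, and its 2 genes at 0, Psmb10 and the thymus-specific Psmb11. Without Psmb11 the middle gene would be Psmb8, above the core median of 14, so the order of these classes depends on the genes counted.

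Counted over all classes, 13 genes had no pooled low-FDR site in any feature, namely Psma8, Psmb5, Psmb6, Psmb10, Psmb11, Psmc1, Psmc3, Psmc3ip, Psmc5, Psmd4, Psmd10, Psme2 and Psmg3. A further 4 had exon sites outside the 3′UTR only (Psma3, Psmd1, Psmd13, Psme2b), and 6 had a 3′UTR site in replicate 1 alone (Psma6, Psmb4, Psmc2, Psme1, Psmg2, Psmg4). No gene had a 3′UTR site in replicate 2 alone. Except for Psme1, the genes found in replicate 1 alone had 8 cDNAs or fewer there, and replicate 1 held 3.87 times the low-FDR cDNAs of replicate 2.

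Proteasome 3′UTRs are short, and the cDNAs per length were high. The median of the longest annotated 3′UTR was 297 nt for the 49 genes, against 921 nt for all genes. Among bound genes it was 342 nt against 1496 nt. Summed cDNAs per kb of this 3′UTR had a median of 125 for the bound proteasome genes and 44.4 for all bound genes. Psmb2 reached 4695 cDNAs per kb on a 3′UTR of 131 nt and Psmb3 reached 2984 on 62 nt, ranks 6 and 13 of the 6869 genes with 3′UTR cDNAs, although by summed cDNAs they ranked 159 and 844. Next by this measure came Psma5 with 539, Psma1 with 515 and Psmd14 with 472 cDNAs per kb.

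The values were therefore also read within classes of 3′UTR length. Below 300 nt, 12 of 26 proteasome genes were bound (46.2%), against 7.53% of all genes. From 300 nt to under 1000 nt, 6 of 13 were bound (46.2%), against 19.7%. From 1000 nt on, 8 of 10 were bound (80.0%), against 29.1%. In each length class the proteasome share was above that of all genes.

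Among genes with a pooled exon site, 12 of 19 proteasome genes were bound below 300 nt (63.2%), against 43.7% of all such genes. In the middle class these were 6 of 8 (75.0%) against 57.5%, and from 1000 nt on 8 of 9 (88.9%) against 63.9%. The order was thus the same on this base, on few genes. The median summed cDNAs of bound genes, from the shortest to the longest class, were 47.5, 63.5 and 74.5 for proteasome genes and 33, 47 and 65 for all genes. Per kb they were 359, 121 and 57.4 for proteasome genes and 175, 75.3 and 28.9 for all genes.

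**Figure D2:**
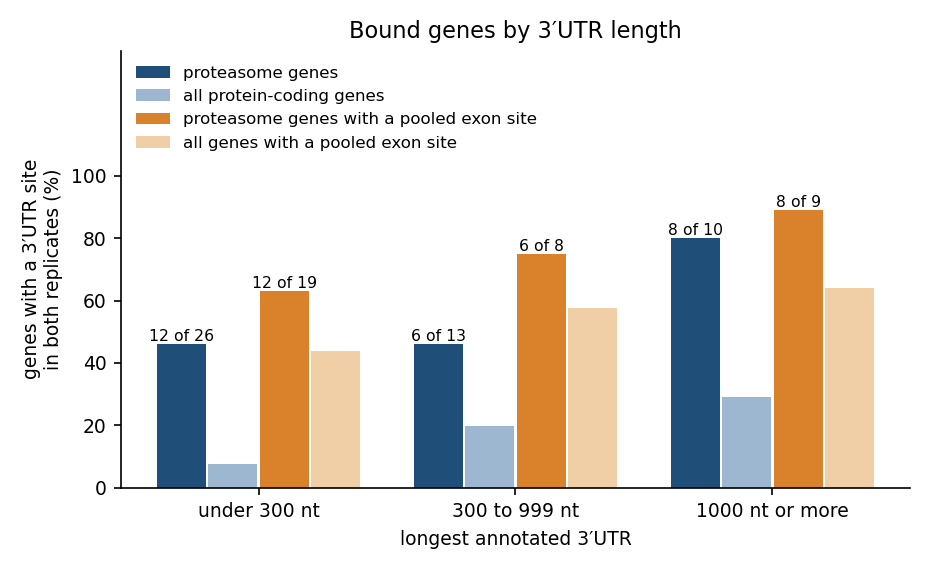
Percent of genes with a 3′UTR site in both replicates (y axis) by length of the longest annotated 3′UTR (x axis), for proteasome genes beside all protein-coding genes with a 3′UTR, and for the genes of each with a pooled exon site. The proteasome bars stand at 46.2%, 46.2% and 80.0%, and at 63.2%, 75.0% and 88.9% among genes with an exon site, with the number of genes printed above each.

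In the genes with short 3′UTRs the sites ran together. When sites at most 15 nt apart were joined, all 57 pooled sites of Psmb2 formed 1 cluster between nucleotides 15 and 102 after the stop codon, which held all 420 and 195 cDNAs. The sites of Psmb3 formed 1 cluster from nucleotide 22 to 45 of its 62 nt, and those of Psma5 formed 1 from nucleotide 65 to 141 of 165 nt. The cluster of Psmb2 is the U-rich run printed above with its flanks, and 38 of the 38 sites called in replicate 2 were also called in replicate 1.

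Other bound genes had several clusters. Psmb9 had 2, of which the distal one, 134 to 203 nt after the stop codon, held 53 cDNAs in replicate 1 against 26 in replicate 2, while the proximal one held 50 and 9. Psmd14 had 2 large clusters as well, with 58 and 20 cDNAs in the proximal and 41 and 21 in the distal one. In replicate 1 the clusters of Psmb9 were nearly level, and in replicate 2 its distal cluster stood out, whereas those of Psmd14 were level in replicate 2. Of Psmd8, 50 and 16 cDNAs lay in a single stretch of 14 sites that includes the run of U shown above.

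The 2 longest 3′UTRs among the 10 highest genes were covered more widely. Psme3 had 13 clusters over 1668 nt, and the 2 largest, 166 to 250 nt and 290 to 422 nt after the stop codon, held 108 and 144 of its 412 cDNAs in replicate 1, and 19 and 32 of its 69 in replicate 2. Psmd11 had 19 clusters over 1542 nt, and the 3 with the most pooled cDNAs held 25, 20 and 24 cDNAs in replicate 1 and 3, 9 and 5 in replicate 2. Of the 2 Psmd11 sites tied at 5 pooled cDNAs, the one shown had 5 in replicate 1 and none in replicate 2, and the other, 1021 nt after the stop codon, had 4 and 1. The site shown for Psmb8 was not called in replicate 2, whose 3 cDNAs on Psmb8 fell in another cluster.

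**Figure D3:**
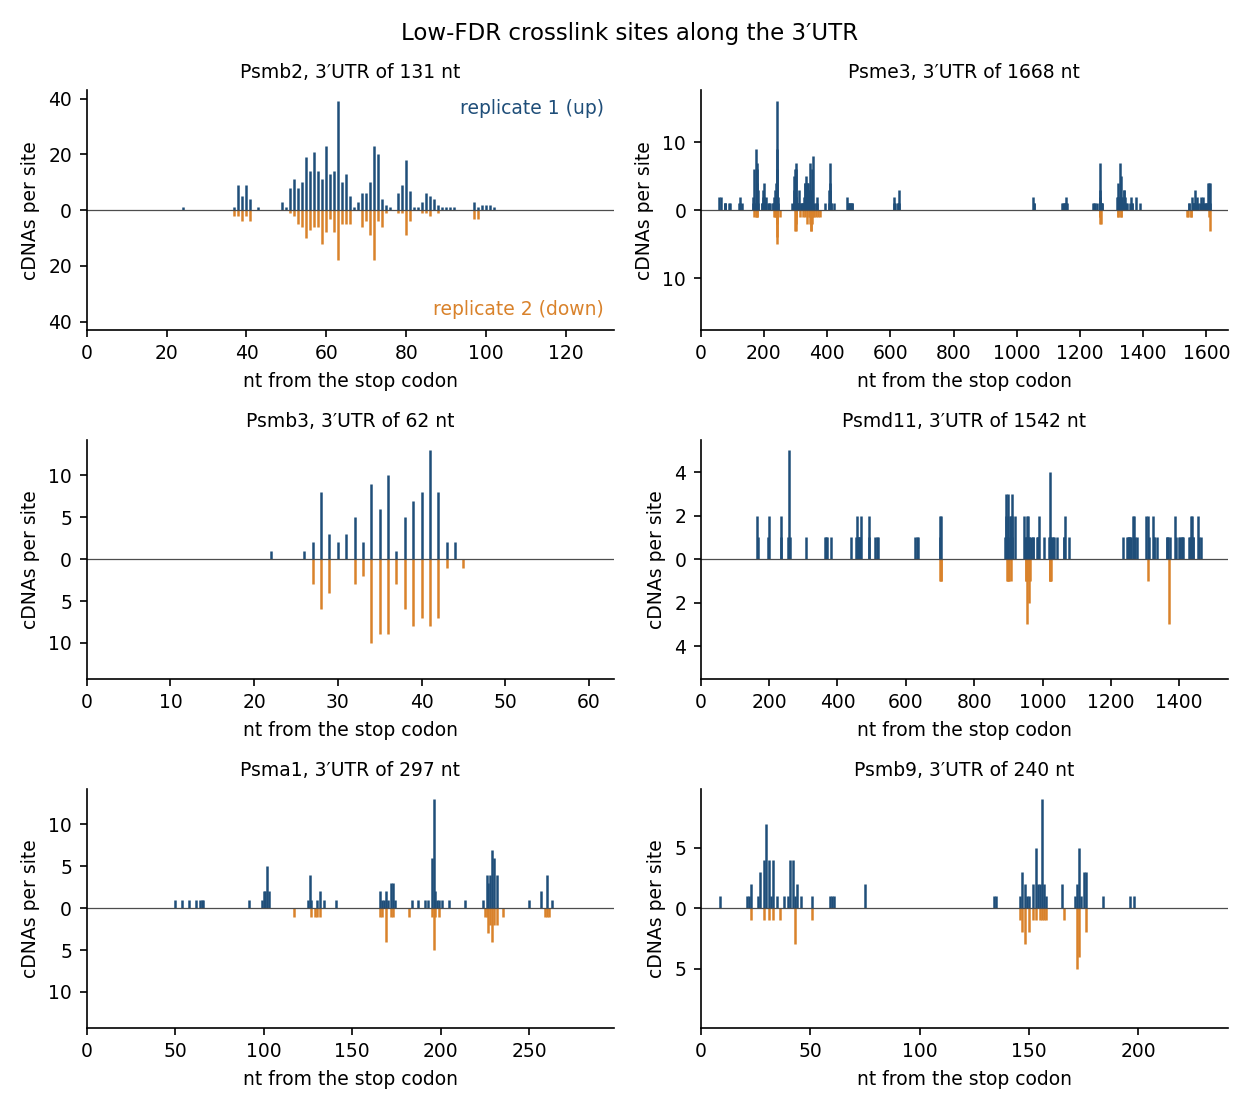
Low-FDR sites along the 3′UTR (x axis, nt from the stop codon) of 6 proteasome genes, with unique cDNAs per site (y axis) upward for replicate 1 and downward for replicate 2. Psmb2 and Psmb3 have a single block of sites, and the sites of Psme3 and Psmd11 are spread over 1668 and 1542 nt.

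Because these 3′UTRs are short, the positions of the sites were set against the length available. The last 100 nt of the 3′UTR held 43.5% of the proteasome cDNAs in replicate 1 and 61.3% in replicate 2 and made up 16.5% and 14.2% of the 3′UTR length of the genes concerned. Over all genes these 100 nt held 11.8% and 16.0% of the cDNAs and 5.36% and 5.21% of the length. The first 100 nt held 42.0% and 49.7% of the proteasome cDNAs, against 10.0% and 11.8% over all genes. Much of this was Psmb2, whose 131 nt lie largely in both windows. Without it the last 100 nt held 29.5% and 46.9% of the proteasome cDNAs, and the first 100 nt held 27.8% and 31.05%, on 16.1% and 13.7% of the length. Per length, the last 100 nt then held 1.84 and 3.42 times their share, against 2.20 and 3.07 times over all genes, and the first 100 nt held 1.73 and 2.26 times, against 1.87 and 2.26. Without Psmb2 the proteasome genes were thus not above all genes in replicate 1, while in replicate 2 the last 100 nt were, with Psmb3 still counted. Without Psme3 as well, the last 100 nt held 2.14 and 3.66 times their share and the first 100 nt 2.12 and 2.46 times. These values were above all genes except for the last 100 nt in replicate 1. Psmb3 was still counted, and its 3′UTR of 62 nt lies wholly in both windows. It gave 98 of these 1285 cDNAs in replicate 1 and 87 of 456 in replicate 2. Shares without Psmb3 were not computed, so no preference of the proteasome genes as a set follows from these values.

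Proteasome sites were set in U-rich sequence, though less so than those of all genes. U made up 41.2% of the 31 nt around the 931 sites of replicate 1 and 45.8% around the 343 sites of replicate 2, or 43.5 ± 3.24% (SD, n = 2). Over all genes it made up 44.9% and 49.6%, or 47.2 ± 3.38%. In each replicate the proteasome value was the lower by 3 to 4 percentage points. Both values rose from replicate 1 to replicate 2, so the SD does not measure the spread of this gap. The site nucleotide itself was U at 69.7% and 83.4% of proteasome sites, against 73.7% and 84.7% over all genes.

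The 31 nt held UUUUU at 29.3% of proteasome sites in replicate 1 and 44.6% in replicate 2, against 39.5% and 54.7% over all genes. AUUUA, the core of the AU-rich element, was found at 3.54% and 4.37% of proteasome sites, against 11.3% and 12.5%. Both were searched on the transcribed strand only, and a match is a description of the sequence and no binding site in itself. The median U content of the longest 3′UTR was 30.9% for proteasome genes and 29.5% for all genes, and 28 of 32 proteasome genes in replicate 1 and 23 of 26 in replicate 2 had more U around their sites than in the whole 3′UTR. The exceptions were Psma4, Psma6, Psma7 and Psmg4 in replicate 1, and Psma4, Psma7 and Psmd6 in replicate 2.

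Within the proteasome genes the crosslinks lay mostly in the 3′UTR. The 3′UTR held 88.4% of their 2394 exonic and intronic cDNAs in replicate 1 (95% exact interval 87.1 to 89.7%) and 95.1% of 757 in replicate 2 (93.3 to 96.5%). Over all genes it held 86.6% and 90.9%. The interval, which covers counting error only, lay above the value of all genes in both replicates. Psmb2 alone gave 420 of the 2117 3′UTR cDNAs in replicate 1 and 195 of 720 in replicate 2. The share without Psmb2 was not computed, and the margin in replicate 1 was small. As means the shares were 91.8 ± 4.73% and 88.7 ± 3.03% (SD, n = 2). Both shares rose from replicate 1 to replicate 2, so the SD does not measure the spread of their difference.

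The coding sequence held 8.52% of the proteasome cDNAs in replicate 1 and 2.38% in replicate 2, against 7.02% and 3.61% over all genes, so that the order turned between replicates. A pooled site in the coding sequence was found for 27 of the 49 genes (55.1%), against 15.3% of all genes, and 5 had one in both replicates (10.2%; Psma2, Psma6, Psmb1, Psmb2, Psmd14), against 3.38% of all genes. Summed over the replicates, the genes with the most coding cDNAs were Psmb2 (29 in replicate 1 and 2 in replicate 2), Psme4 (23 and 0) and Psma6 (16 and 4), while the highest count in replicate 2 alone was that of Psmd14 (6 and 6). Psma6 had more cDNAs in the coding sequence than in the 3′UTR in both replicates, and Psme4, Psmb7, Psmd1 and Psmd13 did in replicate 1.

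The 5′UTR held few cDNAs. It held 2 cDNAs in replicate 1, both on Psma2, and 0 in replicate 2, or 0.0835% and 0% of the proteasome cDNAs, against 1.57% and 1.56% over all genes. Pooled 5′UTR sites were found for 2 of the 49 genes, Psma2 and Psmd14 (4.08%), against 3.27% of all genes. Among genes with a pooled exon site these were 2 of 36 proteasome genes and 709 of 7717 genes, where the proteasome share was the lower. By genes the order thus depended on the base, on few genes. Proteasome 5′UTRs are shorter as well, with a median of 125 nt for the longest one, against 207 nt over all genes. Introns held 2.46% and 2.51%, against 3.19% and 2.65% over all genes, with the highest counts in replicate 1 on Psmd14 (17 and 4 cDNAs), Psme4 (11 and 0) and Psmd5 (10 and 5). In replicate 2 the highest was Psmd13 (3 and 6).

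**Figure D4:**
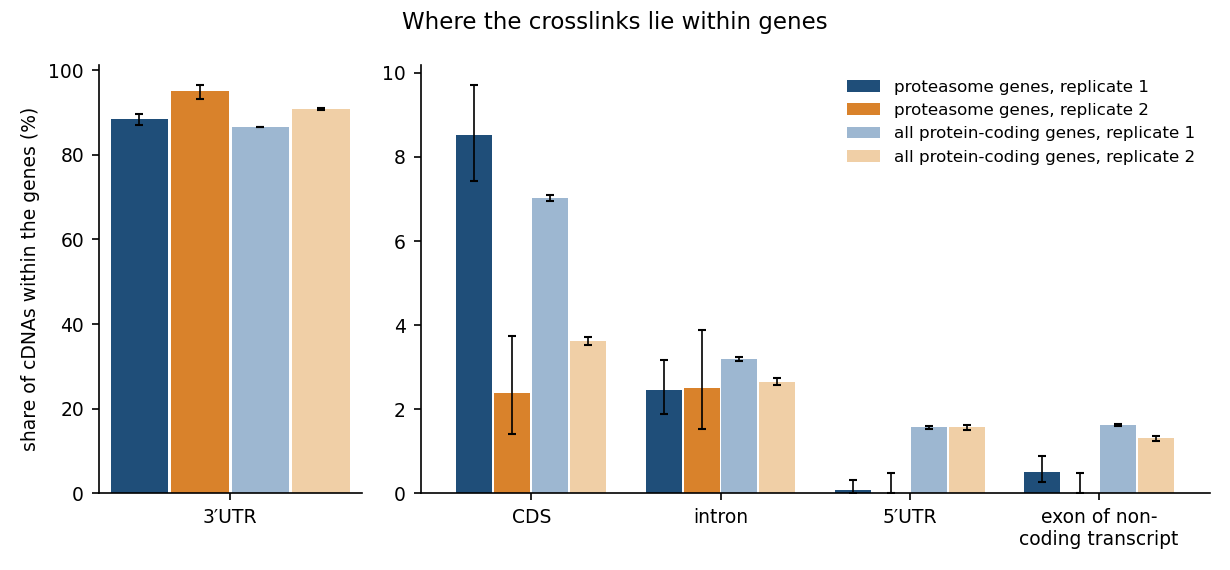
Share of the cDNAs within genes (y axis, percent) that lay in the 3′UTR (left) and in other features (right, on a separate scale), for proteasome genes and all protein-coding genes in each replicate; error bars are exact 95% intervals and cover counting error only. The 5′UTR bar of the proteasome genes is at 0.0835% in replicate 1 and 0 in replicate 2, against 1.57% and 1.56% for all genes.

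Replicate 2 gave 25.4% of the 3′UTR cDNAs of the proteasome genes and 20.99% of those of all genes. Among the 16 proteasome genes with at least 50 cDNAs this share was highest for Psmb3 at 47.0% (95% exact interval 39.7 to 54.5%), Psmd9 at 40.0% (28.9 to 52.0%) and Psma5 at 39.3% (29.1 to 50.3%). It was lowest for Psmd7 at 10.7% (4.03 to 21.9%; 50 and 6 cDNAs), Psmd11 at 14.04% (9.30 to 20.03%) and Psmd12 at 14.1% (7.51 to 23.4%). The interval lay above 20.99% for 5 genes, the 3 highest with Psmb2 and Psmd14, against 13.8% of all genes of that depth. It lay below for 2 genes, Psmd11 and Psme3, against 18.6%. By class the share was 33.1% for core, 18.01% for regulatory, 23.6% for immunoproteasome and 32.8% for assembly genes. These class values rest on few genes. Psmb2 and Psmb3 gave 195 and 87 of the 395 core cDNAs of replicate 2, and Psme3 gave 412 of the 1102 regulatory cDNAs of replicate 1. Psmb2 and Psme3, which stood close together in replicate 1, were thus apart in replicate 2, at 118 and 41.8 cDNAs per 100000.

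**Figure D5:**
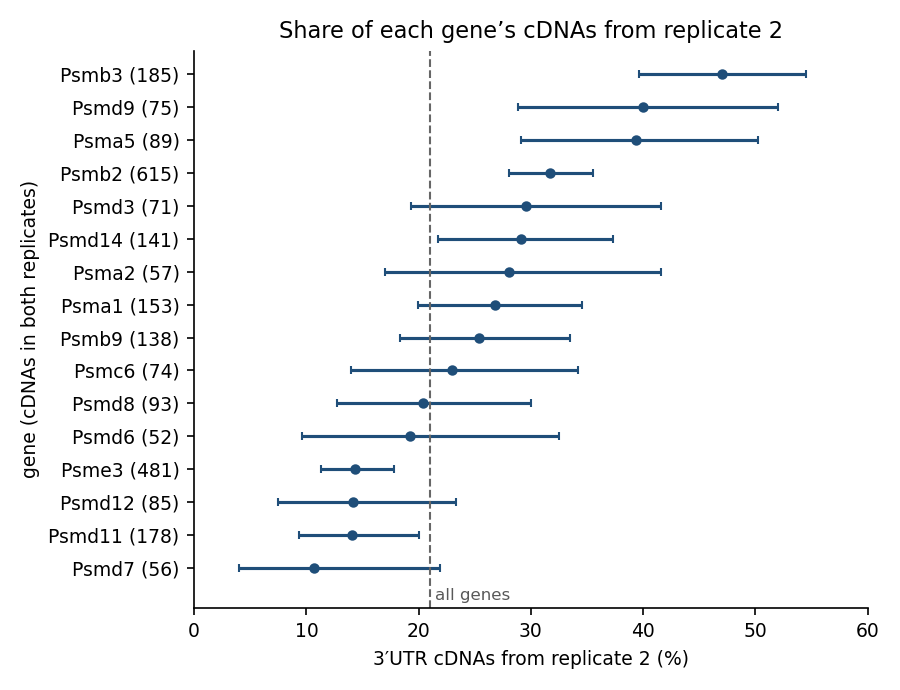
Share of each gene's 3′UTR cDNAs that came from replicate 2 (x axis, percent) for the 16 proteasome genes with at least 50 cDNAs, whose number is given in brackets; bars are exact 95% intervals for counting error only and the dashed line is the 20.99% of all genes. Psmb3 is highest at 47.0% and Psmd7 lowest at 10.7%.

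Genes tied to the proteasome but outside the symbol rule were often bound too. Of a list of 25, which includes assembly and docking factors, deubiquitinases, shuttle receptors, transcriptional regulators and the peptide transporters, 24 were in the annotation and 19 of these were bound, against the background of 21.3% given above. Most genes of the list have a longest 3′UTR of 1000 nt or more, and 29.1% of all genes of that length were bound. Of all genes with a pooled exon site 59.8% were bound. The median of the listed genes was 45.5 cDNAs in replicate 1 and 9.5 in replicate 2. Akirin2, which brings proteasomes into the nucleus, had 113 cDNAs in replicate 1 and 51 in replicate 2. The proteasomal deubiquitinase Usp14 had 125 and 23, the shuttle receptor Ubqln1 had 114 and 8, and the ubiquitin ligase Ube3c had 76 and 30. Adrm1, a ubiquitin receptor of the 19S particle, was the only gene of the list with 0 cDNAs in both 3′UTR counts and, like Psmd4, another such receptor, had no 3′UTR site.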

How the data were processed

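The authors processed the reads with iCount and Bowtie (version not given in the sources used here): PCR duplicates were collapsed with random barcode bases and reads mapped to mm9 with Ensembl 59. At each crosslinked nucleotide the authors deposited a count of unique cDNAs, signed by strand and not scaled to depth. Per the file headers, low-FDR sites (0.05, 100 permutations, 15 nt) were called on each replicate and on their sum, and the authors lifted the summed list to mm10 (GRCm38). That lifted position served for the same nucleotide in each replicate and covered 98.3% and 98.7% of the sites. Sites were assigned by strand to GENCODE M21 features with CDS taken first, then 3′UTR, 5′UTR, exons of non-coding transcripts and introns, and sites in the same feature of several genes were left out. Per kb values use the longest 3′UTR, positions the annotated 3′UTR with the most pooled cDNAs (shorter than the longest for Psmb1, Psmb9 and Psmd12). Python 3.11.15, pandas 2.3.3, scipy 1.17.1 and pysam 0.24.0 were used, and the assignment was tested on simulated sites. Intervals are exact (Clopper-Pearson).

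The members, classes and gene lists were chosen with earlier results of these data known. Values are given for the 10 genes with the most 3′UTR cDNAs, the 5 with the most per kb, all immunoproteasome and assembly genes, the 3 highest in CDS, 5′UTR and intron, the 3 highest and lowest in the share from replicate 2, and, by name, genes with 0. Other genes were named after their values had been seen. Alternatives were the feature order, a minimum of 2 or 5 cDNAs per site, sites called in either replicate, other transcript sets, shared sites, class limits and each replicate alone. One gene among the highest of the list of other pathway genes is not reported here.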

Additional observations from a re-analysis of the deposited data

How the results depend on the processing

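At sites with at least 5 cDNAs the medians per 100000 of the core, regulatory and assembly classes were 0, and that of the immunoproteasome was 0.235 ± 0.332 (SD, n = 2). That value rested on a single Psmb8 site with 6 cDNAs in replicate 1 and none called in replicate 2, so no order of classes follows from it. The order of the CDS share against all genes turned between the replicates. At sites with at least 5 cDNAs, 7 genes were bound in place of 26, and 17 were with 10 or more cDNAs per replicate. The summed 3′UTR cDNAs per 100000 were 275 at sites with at least 2 cDNAs and 144 with at least 5, in place of 384. The medians per 100000 with at least 2 and at least 5 cDNAs per site were 1.08 and 0 for core genes, 0.430 and 0.235 for immunoproteasome genes and 1.40 and 0 for regulatory genes. The core median was 2.40 with 3′UTR before CDS and 2.07 with sites called in either replicate, and the regulatory median was 4.16 with Psme1 and Psme2 moved to the immunoproteasome and Psmd5, Psmd9 and Psmd10 moved in. At sites with at least 5 cDNAs the share from replicate 2 was 23.4%, the 3′UTR share 99.1%, the CDS share 0.291% and the U share 53.1%, and within 15 nt the U share was 49.2%. The cause of the other shifts was not tested, while a higher minimum leaves fewer sites.

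Each replicate alone gave 26 to 32 genes, 331 to 436 cDNAs per 100000, a 3′UTR share of 88.4 to 95.1%, a CDS share of 2.38 to 8.52% and a U share of 41.2 to 45.8%. The class medians ranged from 0 to 0.626 (assembly), 0.909 to 1.56 (immunoproteasome), 1.72 to 1.82 (core) and 2.73 to 3.91 (regulatory). No paired analysis was possible because the series has 1 group. Of the low-FDR sites, 66.5% in replicate 1 and 67.9% in replicate 2 rest on a single cDNA, so low counts have little precision. With coding transcripts of type protein_coding only, and without Psmc3ip, both chosen after seeing the data, 26 genes were bound.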
